A study of Cucumis sativus and Manihot esculenta and Brachypodium distachyon with 34 samples.

Results

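The mCHH genes of *Brassica rapa* described here are 72 genes whose coding sequence was classed as methylated in the CHH context (H is A, C or T) in the part of the study's gene classification used here. That part lists 1999 genes, of which 72 (3.60%) are mCHH genes, 4 are mCHG genes (methylated at CHG but not CHH), 3 are gbM genes (gene body methylation, CG only) and 1920 are unmethylated (UM). Membership rests on the methylation class, not on expression. All 72 were found among the 40492 genes with a leaf expression value. The study sequenced the methylomes of leaves from diverse flowering plants, and leaf RNA from a few of them. *B. rapa*, a crop of the Brassicaceae that includes turnip and Chinese cabbage, was represented by the accession FPsc, untreated as far as the labels say, with leaf RNA from 1 library. Expression is given in FPKM (sequenced fragments scaled to the length of the transcript and to the size of the library). With 1 library there is no replicate error, so the comparisons below describe genes within this library, and no p-value is given. The identifiers are not paired with gene names or functions in the sources used here, so the leaf label was not checked against marker genes, and the genes are named by identifier. The study cautions that some transposons could be wrongly annotated as genes, and this was not checked for the 72.

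CHH methylation in plants is laid down in part by RNA-directed DNA methylation, in which short interfering RNAs guide the methyltransferase DRM2. In *A. thaliana* the chromomethylase CMT2 adds it in heterochromatin that carries the histone mark H3K9me2. Both pathways are known mainly for the silencing of transposons, and genes that carry CHH methylation usually carry CG and CHG methylation too. By the study's rule a gene counted as mCHH if CHH passed a binomial test, whatever its CG and CHG status, so the class says nothing of how strongly each context was methylated. UM genes are those without a significant amount of methylation in such tests, so the class does not show that they carry none.

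Most mCHH genes were listed without expression in leaf. Of the 72, 54 were listed at 0 FPKM (75%, 95% Wilson interval 63.9% to 83.6%, which covers counting of genes only), against 438 of 1920 UM genes (22.8%, interval 21.0% to 24.7%). Over all genes of the library the share listed at 0 was 29.5%. A value of 0 in such a file can be a failed estimate as well as a lack of reads, and in whole leaves a transcript restricted to few cells cannot be told apart from one that is low in every cell. At the other end, 7 mCHH genes reached 1 FPKM (9.72%), against 973 UM genes (50.7%) and 45.7% of all genes. At 10 FPKM or more there were 2 mCHH genes (2.78%), against 449 UM genes (23.4%) and 20% of all genes. The median was 0 FPKM in mCHH genes, 1.07 FPKM in UM genes and 0.655 FPKM over all genes. On the log2(FPKM + 1) scale the mean was 0.30 ± 0.90 in mCHH genes (SD over genes, n = 72) and 1.91 ± 2.16 in UM genes (n = 1920), a difference of -1.61. The difference was not a matter of the zeros alone. Among genes above 0 the median was 0.698 FPKM in 18 mCHH genes, 2.84 FPKM in 1482 UM genes and 2.59 FPKM in 28530 genes of the whole library.

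**Figure D1:**
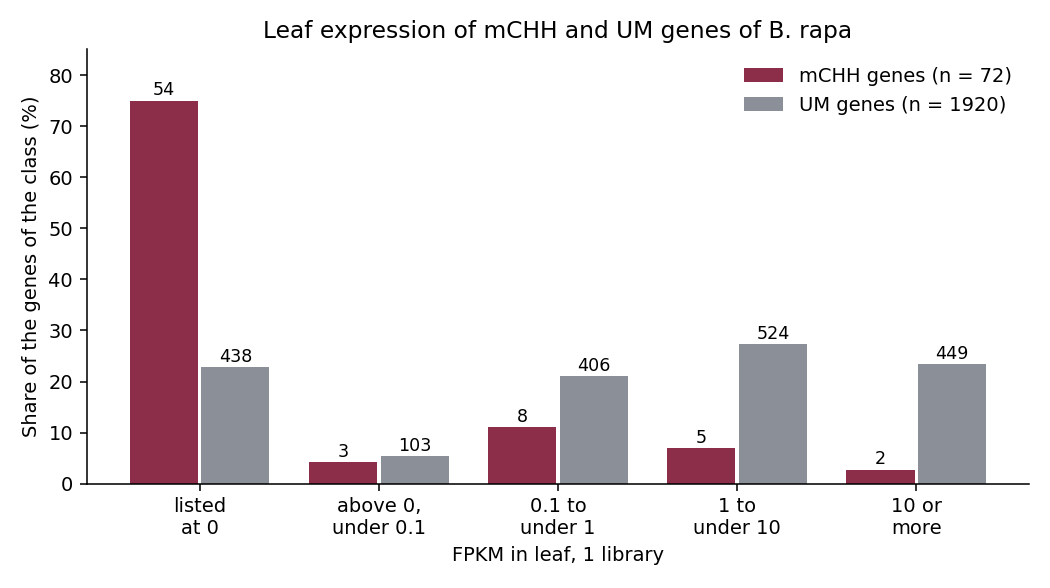
Share of the genes of a class (vertical axis, %) in each band of leaf FPKM (horizontal axis), for 72 mCHH genes and 1920 UM genes, with the number of genes above each bar. The band at 0 holds 54 mCHH genes and 438 UM genes, and the 2 bands from 1 FPKM upwards hold 5 and 2 mCHH genes.

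Read the other way round, the share of mCHH genes among classified genes fell with each step up in expression. It was 10.9% of the 495 genes listed at 0, 2.83% of the 106 genes above 0 but under 0.1 FPKM, and 1.93% of the 415 genes from 0.1 to under 1 FPKM. It was 0.943% of the 530 genes from 1 to under 10 FPKM and 0.442% of the 453 genes at 10 FPKM or more. The bands above 0 rest on 3, 8, 5 and 2 mCHH genes, and the Wilson intervals of their shares overlap.

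The 18 mCHH genes above 0 spanned a wide range. The lowest was Brara.A01502 at 0.00713 FPKM, followed by Brara.A00005 at 0.0351 FPKM and Brara.A02006 at 0.0648 FPKM. These 3 were under 0.1 FPKM but above 0, as were 106 of all classified genes. Another 8 lay between 0.1 and 1 FPKM: Brara.A01504 at 0.106, Brara.A02007 at 0.169, Brara.A01953 at 0.343, Brara.A01718 at 0.361, Brara.A00232 at 0.417, Brara.A01742 at 0.684, Brara.A01339 at 0.712 and Brara.A00902 at 0.847 FPKM. Above them stood the 7 genes at 1 FPKM or more, of which 5 were under 10 FPKM. The level of 1 FPKM runs between Brara.A00902, just below it at 0.847 FPKM, and Brara.A01319, just above it at 1.33 FPKM. No gap in the values separates the expressed genes from those below.

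Brara.A01740 was the most highly expressed mCHH gene, at 55.3 FPKM. That value was above 93.7% of UM genes and 93.8% of all genes of the library. Brara.A01893 followed at 17.6 FPKM, above 83.5% of UM genes. Together these 2 genes held 85.7% of the FPKM summed over the 72 mCHH genes. The other 5 were close to the middle of the UM genes. Brara.A01070 had 2.41 FPKM, above 59.1% of UM genes, and Brara.A00286 had 1.69 FPKM, above 54.8%. Brara.A01335 had 1.53 FPKM (above 53.5%), Brara.A00870 had 1.47 FPKM (53.2%) and Brara.A01319 had 1.33 FPKM (52.3%). Thus 2 of 72 mCHH genes stood in the upper part of the distribution. The other 5 were picked at 1 FPKM or more, and the UM median was 1.07 FPKM. The cut itself therefore placed them near the middle of the UM genes or higher. All 5 lay below the median of the UM genes above 0, which was 2.84 FPKM.

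The surroundings of the expressed genes were mixed. Among the 10 nearest genes of Brara.A01740, 5 on each side, none reached its level, and the highest was its direct neighbour Brara.A01741 at 15.7 FPKM. Beyond that UM gene lies another mCHH gene, Brara.A01742, at 0.684 FPKM, so mCHH genes 2 numbers apart differed widely in level. Brara.A01893 had a direct neighbour listed at 0, Brara.A01892, and then the mCHH gene Brara.A01891, also listed at 0. On its other side it had Brara.A01894 at 1.82 FPKM, and 1 of its 10 nearest genes was higher, Brara.A01896 at 30.5 FPKM. Brara.A01335 had the mCHH gene Brara.A01334, listed at 0, on one side and the UM gene Brara.A01336 at 16.2 FPKM on the other. It was the only one of the 7 with an mCHH gene as direct neighbour. Brara.A01070 lay between UM genes of 8.01 FPKM (Brara.A01069) and 84.5 FPKM (Brara.A01071) and was lower than both. Brara.A00286 and Brara.A00870 were higher than both of their direct neighbours, which had 0.638 and 1.43 FPKM beside Brara.A00286, and 0.594 and 0.354 FPKM beside Brara.A00870. Brara.A01319 had 1.56 FPKM on one side and 0.398 FPKM on the other, with Brara.A01323 at 1143 FPKM 4 numbers away. Of the 10 genes around each of these 7, between 1 and 3 were listed at 0.

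**Figure D2:**
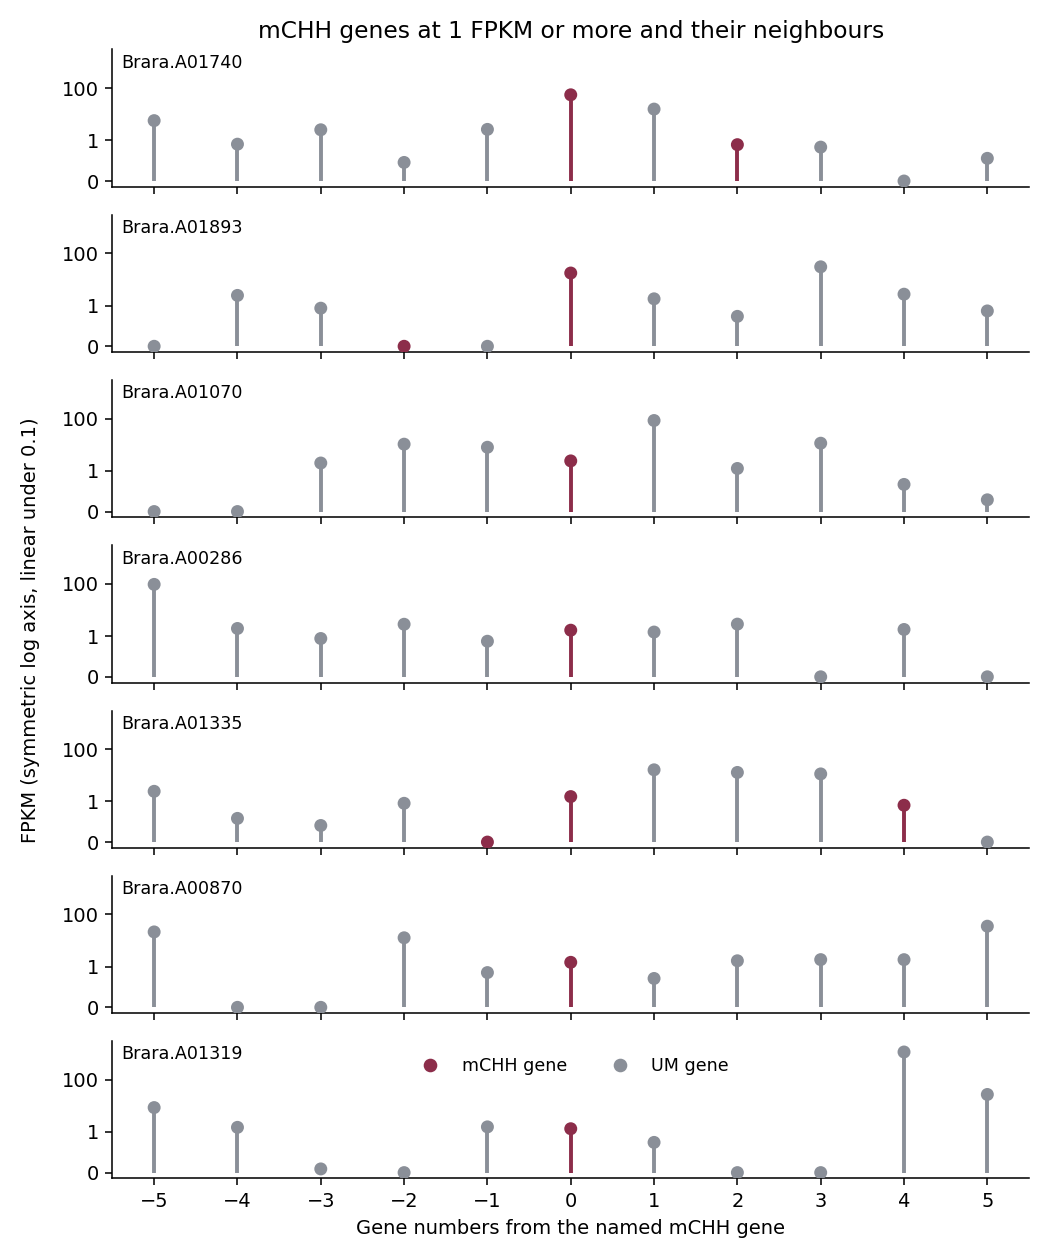
FPKM (vertical axis, symmetric log scale, linear under 0.1) of the 7 mCHH genes at 1 FPKM or more, in order of level from the top, and of the 5 genes on each side, by gene numbers from the named gene (horizontal axis). Neighbours of each gene range from listed at 0 to over 10 FPKM, and Brara.A01740 at 55.3 FPKM is the highest of its window.

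The part of the classification used here covers the identifiers lettered A, from number 1 to number 2015 of 3953. The letter and number were read as one chromosome numbered along its length. The sources used here give no coordinates for these genes, so distances are in gene numbers, not in bases. The mCHH genes were unevenly spread over this range. The first 1007 numbers held 18 of them and the rest held 54 (75%), with 39 above number 1511 (54.2%). In windows of 250 numbers the count of mCHH genes was 3, 3, 8, 4, 3, 9, 13 and 25, so that the window from 1751 to 2000 had 25 among its 249 classified genes. The last 15 classified genes held 4 more. The longest stretch without an mCHH gene ran from Brara.A00005 to Brara.A00232, over 227 numbers, whereas the median step from one mCHH gene to the next was 7 numbers.

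The share of UM genes listed at 0 was not higher where mCHH genes were dense. In the window from 1751 to 2000, 18.0% of UM genes were listed at 0, the lowest share of the 8 full windows, whose highest was 28.4% (751 to 1000). The median of the UM genes was 1.08 FPKM in that window, and between 0.627 and 2.00 FPKM over the 8. Above number 1007, 21.2% of UM genes were listed at 0, and up to that number 24.3%. Levels went the other way, with a UM median of 0.964 FPKM above number 1007 and 1.18 FPKM up to it, and a median of 2.54 and 3.30 FPKM over the UM genes above 0. Of the mCHH genes, 75.9% (41 of 54) were listed at 0 above number 1007 and 72.2% (13 of 18) up to it. Window by window, mCHH genes were listed at 0 in 23 of 25 against 40 of 222 UM genes (1751 to 2000), in 8 of 13 against 54 of 235 (1501 to 1750), in 6 of 9 against 52 of 236 (1251 to 1500) and in 8 of 8 against 68 of 240 (501 to 750). The other windows held 4 mCHH genes or fewer. With UM genes weighted to the windows in which the mCHH genes lie, the share of UM genes listed at 0 was 21.5%, close to the unweighted 22.8%.

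**Figure D3:**
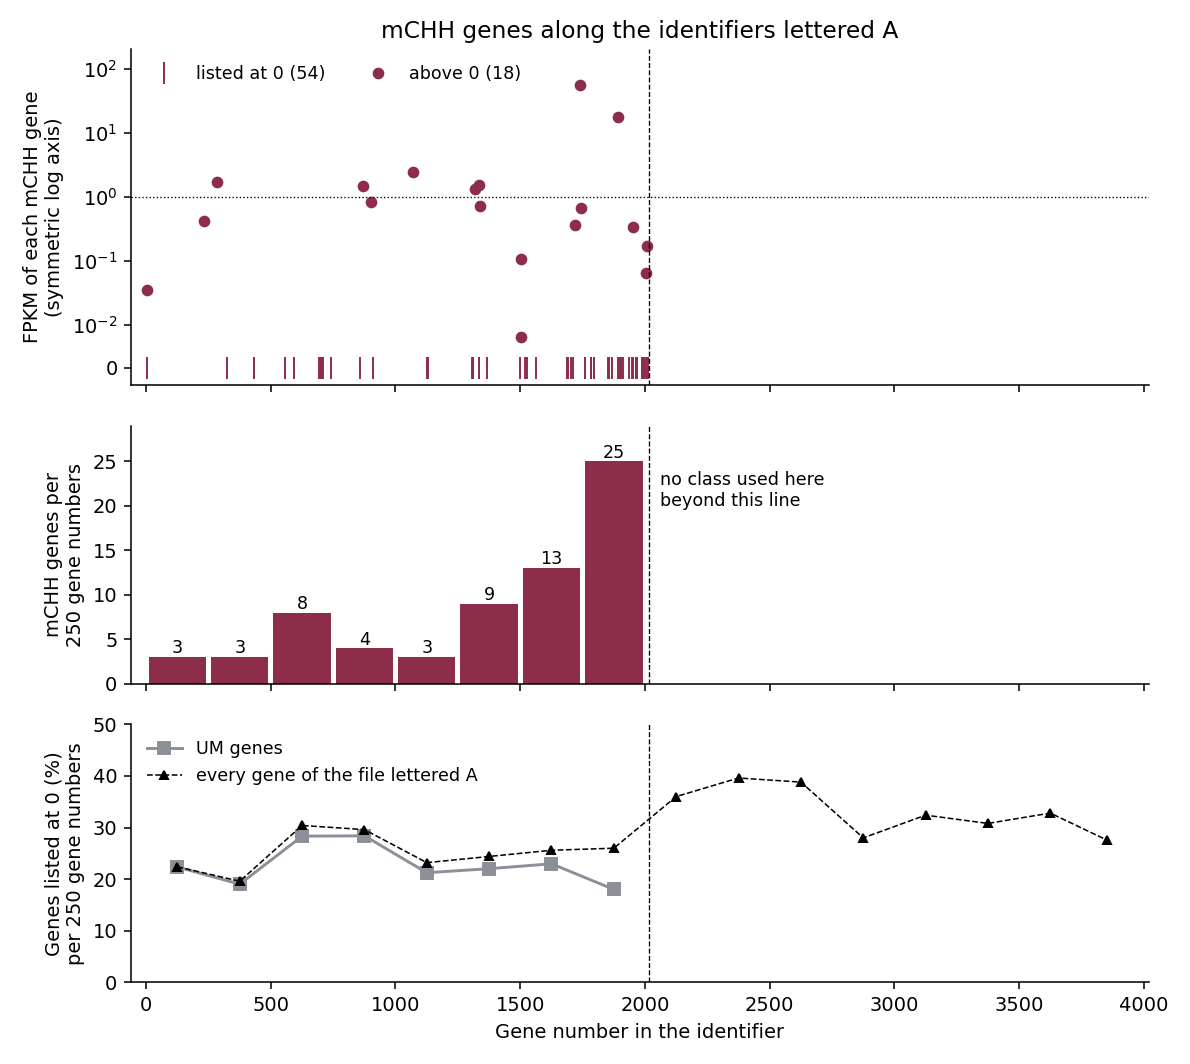
mCHH genes by the number in their identifier (horizontal axis): FPKM of each gene on a symmetric log scale (top), their count per 250 numbers (middle), and the share of UM genes and of every gene lettered A listed at 0 per 250 numbers (bottom, %). Counts reach 13 and 25 in the 2 windows before number 2000 while the UM share stays at 23.0% and 18.0%, and beyond the dashed line at number 2015 no classes were used.

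Many mCHH genes lay next to one another. Of the 72, 23 (31.9%) had another mCHH gene as direct neighbour, whereas 113 of 1920 UM genes (5.89%) had an mCHH gene beside them. The 23 formed 9 runs of consecutive numbers, of which 5 held 2 genes and 4 held 3 or more, and 49 mCHH genes stood alone. Within 10 numbers of another mCHH gene there were 57 of the 72 (79.2%), whereas 666 of 1920 UM genes (34.7%) had an mCHH gene that near. Both UM shares were taken over the whole range, while 54.2% of the mCHH genes lay above number 1511. These contrasts therefore include the uneven spread of the mCHH genes, and closeness beyond that spread was not tested.

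The 4 longer runs held 13 genes, and all 13 were listed at 0. The longest was Brara.A01308 to Brara.A01311, with 4 genes, set between Brara.A01307, a UM gene listed at 0, and Brara.A01312 at 1.13 FPKM. Brara.A00702 to Brara.A00704 ended at Brara.A00705, with 10.6 FPKM. Brara.A01963 to Brara.A01965 began after Brara.A01962, with 10.9 FPKM, and Brara.A01991 to Brara.A01993 began after Brara.A01990, with 1.77 FPKM. Each of these runs thus had a gene above 1 FPKM directly at one of its ends. The opposite ends were Brara.A00701, Brara.A01307 and Brara.A01966, all listed at 0, and Brara.A01994 at 0.116 FPKM. A direct neighbour at 1 FPKM or more stood beside 65.3% of the 72 mCHH genes and 73.6% of 1919 UM genes, so such an end is common. The runs of 2 genes were mixed, with 5 of 10 genes listed at 0: both in Brara.A01784 and Brara.A01785, 1 each in Brara.A01334 and Brara.A01335, Brara.A01501 and Brara.A01502, and Brara.A01953 and Brara.A01954, and none in Brara.A02006 and Brara.A02007. Of the genes standing alone, 36 of 49 (73.5%) were listed at 0 and 6 reached 1 FPKM, against 18 of 23 (78.3%) and 1 among those with an mCHH neighbour.

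Genes flanking mCHH genes were expressed about as often as other genes. Of the 113 UM genes directly beside an mCHH gene, 22 (19.5%, interval 13.2% to 27.7%) were listed at 0, against 288 of 1254 UM genes (23.0%) more than 10 numbers from any mCHH gene. In between, the share was 15.2% of 92 UM genes at a distance of 2, 26.5% of 211 at 3 to 5, and 23.2% of 250 at 6 to 10. Direct neighbours at 1 FPKM or more made up 46.9% (53 of 113), against 50.9% (638 of 1254) of the distant genes. High levels were fewer among them, with 17 of 113 (15.0%) at 10 FPKM or more, against 303 of 1254 (24.2%). The median was 0.760 FPKM in direct neighbours and 1.11 FPKM in distant genes. Above number 1007, where most mCHH genes lie, the median was 0.653 FPKM in 81 direct neighbours and 1.10 FPKM in 514 distant genes. Up to that number it was 1.10 FPKM in 32 direct neighbours and 1.12 FPKM in 740 distant genes.

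Position by position, the shares varied on both sides of the mCHH genes. The share of UM genes listed at 0 was 12.1% at the next lower number (7 of 58) and 27.6% at the next higher number (16 of 58). Over the 20 positions up to 10 numbers away the share ran from 7.94% to 31.7%, and both values lie inside that range. The direction of transcription is not given by the sources used here, so lower and higher numbers do not stand for upstream and downstream. A UM gene near more than 1 mCHH gene enters several positions.

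**Figure D4:**
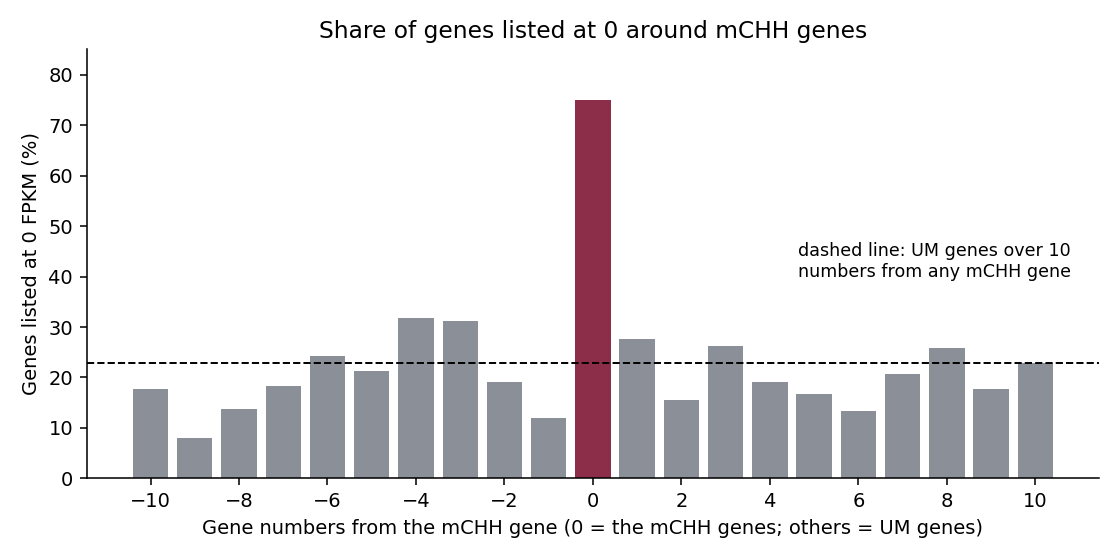
Share of genes listed at 0 FPKM (vertical axis, %) for the 72 mCHH genes (position 0, 75%) and for UM genes at each distance of up to 10 gene numbers (horizontal axis; 58 to 67 genes a position). The dashed line marks the 23.0% of UM genes over 10 numbers from any mCHH gene; the flanking bars lie between 7.94% and 31.7%.

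An expressed direct neighbour was about as frequent beside mCHH genes listed at 0 as beside UM genes listed at 0. Of the 54 mCHH genes listed at 0, 35 (64.8%) had a direct neighbour at 1 FPKM or more, against 299 of 437 such UM genes with a gene on either side (68.4%). A direct neighbour at 10 FPKM or more stood beside 12 of these mCHH genes (22.2%), against 154 of the UM genes (35.2%), and one at 100 FPKM or more beside 2 (3.70%), against 26 (5.95%). Brara.A01797 was listed at 0 beside Brara.A01796 at 182 FPKM, and Brara.A01688 was listed at 0 beside Brara.A01687 at 108 FPKM. Brara.A00909 lay beside Brara.A00908 at 77.9 FPKM, Brara.A00555 beside Brara.A00554 at 39.5 FPKM, and Brara.A01702 beside Brara.A01701 at 38.6 FPKM. These 3 were listed at 0 as well. Both direct neighbours were above 0 for 25 of the 54 mCHH genes (46.3%), against 194 of the 437 UM genes (44.4%), and both were at 0 for 9 (16.7%), against 52 (11.9%).

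Set against its own direct neighbours, an mCHH gene was lower than both in 30 of 72 cases (41.7%), against 491 of 1919 UM genes (25.6%). It was higher than both in 5 (6.94%), against 628 UM genes (32.7%). A gene of either class listed at 0 could be lower only where neither neighbour was at 0, so the shares lower than both understate how often genes of both classes were at the bottom. Among the genes lower than both, 25 of the 30 mCHH genes and 194 of the 491 UM genes were listed at 0. That contrast therefore largely restates the share of mCHH genes at 0. The zeros of both classes lay in blocks of like length. Of the mCHH genes listed at 0, 46.3% had no other gene at 0 beside them and 27.8% lay in blocks of 3 or more consecutive genes at 0, against 44.3% and 26.7% of the 438 UM genes listed at 0. Of the 15 mCHH genes in such blocks, 13 were those of the mCHH runs of 3 or more, so their blocks consisted largely of mCHH genes. The largest block with an mCHH gene ran from Brara.A01365 to Brara.A01370, with 1 mCHH gene and 5 UM genes. The next, from Brara.A01307 to Brara.A01311, held 4 mCHH genes and 1 UM gene.

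In 3 places a single UM gene lay between mCHH genes, and these did not share a level. Brara.A01741 had 15.7 FPKM between Brara.A01740 and Brara.A01742. Brara.A01503 had 0.446 FPKM between Brara.A01502 at 0.00713 and Brara.A01504 at 0.106 FPKM. Brara.A01892 was listed at 0 between Brara.A01891, at 0, and Brara.A01893, at 17.6 FPKM.

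The other methylated classes of *B. rapa* were too small here for shares. Of the 4 mCHG genes, Brara.A00812, Brara.A01707 and Brara.A01972 were listed at 0 and Brara.A00172 had 14.3 FPKM. The 3 gbM genes were all above 0: Brara.A01980 had 21.3 FPKM, Brara.A00585 had 3.53 FPKM and Brara.A00508 had 0.666 FPKM. The grass *Brachypodium distachyon* was the other species with both a leaf RNA library and a part of the classification in use here, and that part holds 8 mCHH genes. Of these, 5 were listed at 0 (62.5%, interval 30.6% to 86.3%), against 26.2% of 1256 UM genes, and the highest had 0.924 FPKM. This interval covers counting of 8 genes only, so neither a difference nor a likeness between the species can be read from it. Species and annotation differ as well. The *B. distachyon* part also holds 169 mCHG genes, of which 121 (71.6%, interval 64.4% to 77.9%) were listed at 0. A high share at 0 was thus not particular to mCHH genes in that species. Its 566 gbM genes had a share of 11.1%.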

How the data were processed

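Leaf RNA of *B. rapa* FPsc was sequenced in 1 library. Per the labels and the methods, the authors aligned reads with TopHat2 2.0.13 against a gene annotation, quantified them with Cufflinks 2.2.1 and deposited FPKM per gene; Trimmomatic 0.32 stands in the submitters' processing notes. How reads matching several copies of a gene were divided, and whether strand was used, is not given in the sources used here. FPKM values move in steps that depend on transcript length, which is not in the file, so the reads behind each value could not be recovered from it. The smallest value above 0 was 0.00413 FPKM.

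Classes came from the study's classification, held here only in its first 1999 rows for *B. rapa*; the authors called them from uniquely mapped bisulfite reads over coding sequence. Each gene had 1 row, and the transcript suffix was dropped to match. Shares at 0, 1 and 10 FPKM, medians, and mean log2(FPKM + 1) with a pseudocount of 1 were computed without a filter on low values, in Python 3.11.15 (SciPy 1.17.1 for intervals, pandas 2.3.3 and NumPy 2.4.6 for the tables, Matplotlib 3.10.9 for plots). Run and share functions were tested on simulated data. Genes named are all mCHH genes at 1 FPKM or more with their direct neighbours, all runs of 3 or more, the mCHH genes next to 1 FPKM, and the highest mCHG and gbM genes. The other mCHH genes above 0, the runs of 2, the genes at 0 beside the highest neighbours, the genes further from the expressed ones, the zero blocks and the remaining mCHG and gbM genes were named after their values were seen. The set and the lists were chosen for description with earlier results of these data known; its members are all genes classed as mCHH, and no expression value entered that class. Alternatives changed the level counted as expressed, the pseudocount, the genes compared with, the gap between neighbours and the flank width.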

Additional observations from a re-analysis of the deposited data

How the results depend on the processing

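With 1 library, no replicate could be left out, and no paired analysis was possible because the groups are classes of genes within that library. The share of mCHH genes listed at 0 stayed inside its interval under its 3 alternatives: 79.2% at or under 0.1 FPKM, 73.5% over mCHH genes without an mCHH neighbour, and 69.5% without runs of 3 or more (the last chosen after seeing the data). The level of 0.1 FPKM could only raise the share. The interval treats genes as separate draws, although some lie in runs. For UM genes the share was 28.2% at or under 0.1 FPKM, and it was 29.5% over all genes of the library in their place. The share of mCHH genes counted as expressed depended on the level, with 20.8% at 0.1 FPKM, 4.17% at 2 FPKM and 2.78% at 5 FPKM. The difference in mean log2 value kept its sign throughout, at -3.08 with a pseudocount of 0.1, -4.77 with 0.01, and -1.05 for medians, so its size is set largely by how zeros are treated. Without the 2 highest mCHH genes, chosen after seeing the data, it was -1.75, and without genes at 0 it was -1.28. The number of mCHH genes with an mCHH neighbour was 38 for gaps of up to 3 numbers, 42 for up to 5 and 57 for up to 10. Numbers above 1511 in place of those above 1007 held 54.2% of the mCHH genes. The share of flanking UM genes at 0 stayed between 17.6% and 22.5% for flanks of 2 to 10 numbers. Joining several rows of a gene was not run, since each gene had 1 row.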

Other observations

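Between numbers 1 and 2015, 16 genes have an expression value but no class in the classification used here, and 12 of them were listed at 0 (75%, interval 50.5% to 89.8%). The other 4 were Brara.A01194 at 13.2 FPKM, Brara.A01419 at 2.13 FPKM, Brara.A01494 at 0.295 FPKM and Brara.A01193 at 0.0424 FPKM. Only 2 of the 16, Brara.A01903 and Brara.A01494, lay within 10 numbers of an mCHH gene.

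Beyond number 2015, where no class was used, genes lettered A were listed at 0 more often, at 33.4% of 1938 genes, against 29.2% over all 3953, these included. The share was 36% in the window from 2001 to 2250, which still holds 15 classified genes, 4 of them mCHH genes. It was 39.6% from 2251 to 2500 and 38.8% from 2501 to 2750, and 27.6% in the last window. The windows with the highest shares follow directly on those in which mCHH genes were densest. Within the classified range, however, the window from 1751 to 2000, with 25 mCHH genes, had 26% of its genes listed at 0. That was below the 30.4% from 501 to 750, with 8 mCHH genes. How many mCHH genes lie beyond number 2015 was not analysed here, and a link between these shares and mCHH genes was not tested.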
